A study of Schizosaccharomyces pombe with 4 samples.

Results

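Fission yeast (*Schizosaccharomyces pombe*) strains are built and followed with a small set of biosynthetic genes whose loss makes the cell depend on an added nutrient. The 6 genes described here are *arg3* (SPAC4G9.10), *ura4* (SPCC330.05c), *his3* (SPBC11B10.02c), *leu1* (SPBC1A4.02c), *ade6* (SPCC1322.13) and *lys1* (SPAP7G5.04c). They were chosen by symbol or systematic ID, and all 6 were found among the 4861 gene names of the array, each with 1 probe printed in 2 spots. The marker genes were measured in logarithmically growing *sim3-143* and *sim3-205* cells, 2 missense alleles of the CENP-A chaperone gene *sim3*, each against wild-type. Mutant and wild-type cDNA were hybridized together on 4 spotted ORF arrays, 2 per allele. Mutant cDNA carried Cy3 in replicate 1 and Cy5 in replicate 2, wild-type cDNA the opposite dye. Whether the swapped arrays share RNA extracts, and whether the alleles share wild-type RNA, is not given in the sources used here. The replicates are therefore arrays, and with 2 per allele their number sets the precision.

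*arg3* encodes ornithine carbamoyltransferase of arginine synthesis, *ura4* orotidine 5′-phosphate decarboxylase of pyrimidine synthesis, and *his3* histidinol-phosphate aminotransferase. *leu1* encodes 3-isopropylmalate dehydrogenase of leucine synthesis, *ade6* phosphoribosylaminoimidazole carboxylase of purine synthesis, and *lys1* aminoadipate reductase of lysine synthesis. A copy of such a gene placed in silent chromatin reports on silencing, since cells that repress it grow poorly without the nutrient. Selection for better growth without arginine of cells with *arg3*+ in the centromere core gave both *sim3* alleles.

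In the strain list of the study, the silencing strains of wild-type, *sim3-143* and *sim3-205* all carry *cnt1:arg3*+, *otr2:ura4*+, *cnt3:ade6*+ and *tel1:his3*+, that is, *arg3* and *ade6* in centromere cores, *ura4* in an outer repeat and *his3* near a telomere. At their own loci these strains carry a deletion of *arg3*, *ura4* or a shortened form of it, a deletion of *his3*, and the point mutations *leu1-32* and *ade6-210*. The *arg3* deletion is *arg3-D3* in the *sim3-143* strain, and *arg3-D4* in the *sim3-205* and wild-type strains. Other strains of the list, wild-type and *sim3*, lack the inserted reporters. In the list, *lys1*+ serves only to place other sequences, in a wild-type and a *sim3-205* strain with a marked centromere and in a strain with a CENP-A mutant. Neither the labels nor the methods say which strains were hybridized, so a probe signal cannot be assigned to a gene's own locus or to an inserted copy, and any difference in marker genotype between mutant and wild-type cannot be told apart from the allele.

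The deposited intensities were corrected for background and normalized between the dyes, and a ratio above 0 on the log2 scale means more transcript in the mutant. A gene was counted as past 1.5-fold where at least 3 of its 4 data points (2 spots on 2 arrays) lay beyond a log2 ratio of 0.58 on the same side of 0. This count carries no p-value. Tests were made with limma on the array means, with adjustment over the 4824 genes measured on all arrays. No gene, and so none of the 6, was called in any of 4 comparisons (0% of genes for *sim3-143*, *sim3-205*, their mean and their difference at adjusted p below 0.05). The numbers of genes at an unadjusted p under 0.05 were 422, 422, 556 and 244 in the same order. The *sim3* transcript itself gave 0.25 and -0.038 in *sim3-143*, and its *sim3-205* ratios were -0.00059 and -0.27. As both alleles are missense, its level does not check the labels. On *sim3-205* replicate 1 the dyes were unrelated in 3 of 32 grids, none of which holds a marker gene. The gene names written for *sim3-143* replicate 2 and *sim3-205* replicate 1 match the printed layout at 0.52% of positions, so all 4 arrays were read by grid position.

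Of the 6 marker genes, *ade6* was higher and *lys1* was lower past 1.5-fold in *sim3-205*, and no marker gene was past it in *sim3-143*. The study's own lists of genes past 1.5-fold in *sim3-205* hold neither *ade6* nor *lys1*. Which names those lists used for the 2 arrays that depart from the printed layout is not given. A gene name may therefore not stand for the same spots in both. With the names as written, the *sim3-205* means were 0.24 for *ade6* and -0.37 for *lys1*, and neither was past 1.5-fold. Among all genes the rule took 154 of 4846 in *sim3-205* (3.18%; 2.54% higher and 0.64% lower) and 169 of 4829 in *sim3-143* (3.5%; 2.11% higher and 1.39% lower). The mean ratio of *ade6* in *sim3-205* was 0.93 ± 0.28, that of *lys1* was -0.59 ± 0.030 and that of *leu1* was -0.61 ± 0.19 (SD, n = 2 arrays each). The other 3 lay between -0.26 for *his3* and 0.18 for *arg3*. In *sim3-143* the means ran from -0.40 ± 0.081 for *lys1* to 0.20 ± 0.25 for *arg3*. The SD of the marker genes between 2 arrays lay between 0.0091 and 0.28 in *sim3-205* and between 0.081 and 0.25 in *sim3-143*, where the medians over all genes were 0.21 and 0.19.

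**Figure D1:**
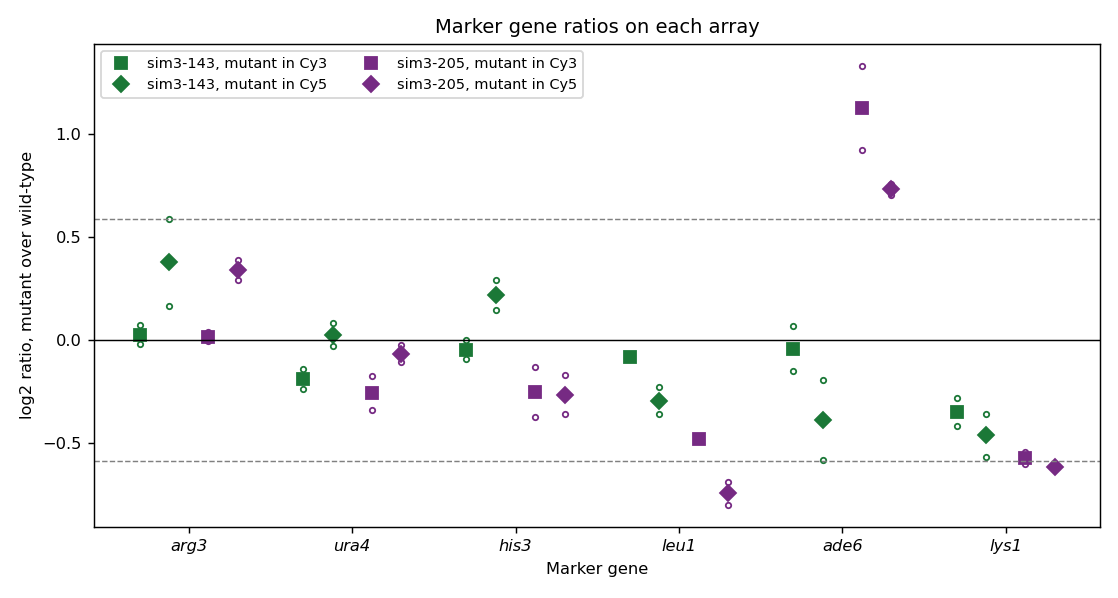
Log2 ratio of mutant over wild-type (vertical axis) for each marker gene (horizontal axis). Small open circles are single spots, squares and diamonds are array means with the mutant in Cy3 or Cy5, and dashed lines mark 1.5-fold. All 4 *sim3-205* spots of *ade6* lie above the upper line (array means 1.12 and 0.73), all *lys1* spots lie below 0, and *arg3* lies highest where the mutant was in Cy5.

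*arg3*, the gene on which the *sim3* screen rested, was dim on every array. Its normalized intensity (geometric mean of 2 spots) was 448 in *sim3-143* against 440 in wild-type on replicate 1, and 352 in *sim3-143* against 271 in wild-type on replicate 2. It was 438 in *sim3-205* against 432 in wild-type on replicate 1, and 434 in *sim3-205* against 343 in wild-type on replicate 2. The mutant was thus the brighter sample on all 4 arrays, but nearly level with wild-type on both arrays that carried it in Cy3. There the direction depended on the processing. The *sim3-205* replicate 1 ratio was -0.21 without background correction, -0.49 with plain background subtraction and -0.027 with loess within each grid. That of *sim3-143* replicate 1 was -0.094 with loess within each grid and -0.020 without spots of any image code. The log2 ratios were 0.026 and 0.38 for *sim3-143* and 0.018 and 0.34 for *sim3-205*, so that the arrays differed by dye orientation more than by allele. The difference between alleles, *sim3-205* minus *sim3-143*, was -0.023 (95% interval -0.67 to 0.62). The mean over both alleles was 0.19, with a 95% interval of -0.13 to 0.51 (limma adjusted p = 0.57). With the main processing, an exact 2-sided sign-flip test over the 4 arrays gave the smallest p that this number of arrays allows, which is above 0.05. Raw *arg3* intensities were 2.06 to 4.85 times the local background. With median centring in place of loess the *sim3-205* mean turned to -0.71, with array ratios of -1.94 and 0.52, and the *sim3-143* mean became 0.69, so neither the direction in *sim3-205* nor the size in *sim3-143* is settled.

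Whether a marker that a strain lacks gave any signal was looked at against the empty and buffer spots. Net of background, *arg3* exceeded the 95th percentile of those spots in 16 of 16 measurements (4 arrays, 2 spots, 2 dyes), by factors of 1.45 to 28.6. The lowest factor was 1.92 among the mutant measurements and 1.45 among those of wild-type. *ura4*, *his3*, *leu1*, *ade6* and *lys1* also passed it in 16 of 16, with lowest factors of 8.10, 7.34, 55.1, 11.5 and 30.5. Passing this level does not show a transcript of the gene. Probes for bacterial *lacZ* and for GFP, sequences that are not native to yeast, passed it in 16 of 16 measurements each, with lowest factors of 3.94 and 7.05 for the 5′ and 3′ ends of *lacZ* and 8.73 for GFP, and the kanMX probe in 13 of 16 (probes chosen after their values were seen). Some strains of the list, wild-type and *sim3*, carry GFP or kanMX, so the GFP and kanMX probes may match sequences in the hybridized cells. Of all gene spots, between 93.1% and 99.8% passed the 95th percentile of the empty and buffer spots in a given file and dye.

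*ura4* and *his3*, which the silencing strains carry as reporters in an outer repeat and near a telomere, had small ratios in both alleles. Whether the probes read those reporters is not known. *ura4* intensities were 1880 and 1484 in *sim3-143* against 2140 and 1457 in wild-type, and 1196 and 1824 in *sim3-205* against 1428 and 1908 in wild-type. Its ratios were -0.19 and 0.027 for *sim3-143* and -0.26 and -0.065 for *sim3-205*, lower in the mutant on 3 of 4 arrays. The 95% intervals were -0.48 to 0.32 in *sim3-143* and -0.56 to 0.24 in *sim3-205*, neither of which reaches 1.5-fold. *ura4* again read higher where the mutant was in Cy5 than where it was in Cy3.

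*his3* intensities were 2257 and 1880 in *sim3-143* against 2329 and 1616 in wild-type, and 1134 and 1018 in *sim3-205* against 1351 and 1223 in wild-type. *his3* lay below wild-type on both *sim3-205* arrays, with ratios of -0.25 and -0.26, while the *sim3-143* ratios of -0.045 and 0.22 lay on either side of 0. The difference between alleles, -0.34 with a 95% interval of -0.91 to 0.22, did not pass the test (limma adjusted p = 0.71). The *sim3-143* mean of 0.087 turned to -0.033 with loess within each grid (print-tip loess).

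**Figure D2:**
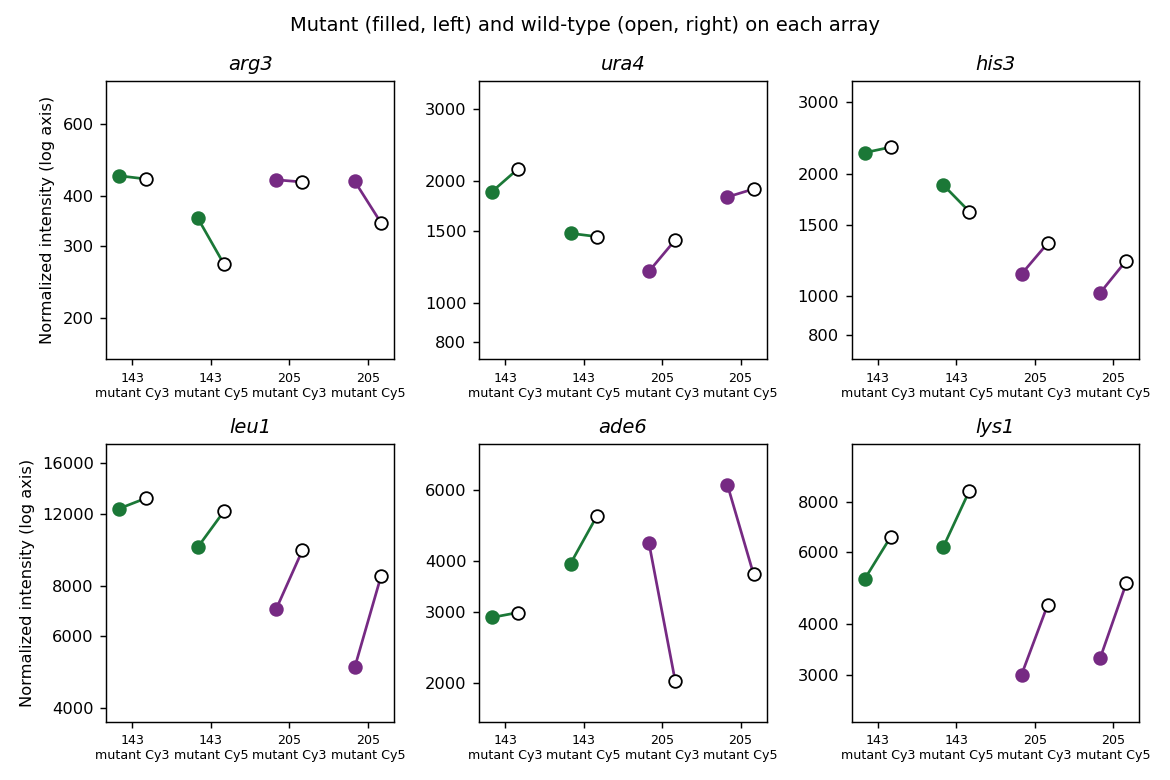
Normalized intensity (vertical log axis, arbitrary scanner units, each panel with its own range) of the 6 marker genes on the 4 arrays (horizontal axis, allele and dye of the mutant). Each line joins the mutant (filled, left) to wild-type (open, right) of the same array, as the geometric mean of 2 spots. On all 4 arrays *lys1* and *leu1* are dimmer in the mutant than in wild-type, whereas *ade6* is at 4432 and 6167 in *sim3-205* against 2033 and 3713 in wild-type.

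*ade6*, whose mutants turn red on low adenine, had the largest ratios of the 6. Its intensity was 4432 in *sim3-205* against 2033 in wild-type on replicate 1, and 6167 in *sim3-205* against 3713 in wild-type on replicate 2. It was 2908 in *sim3-143* against 2990 in wild-type on replicate 1, and 3944 in *sim3-143* against 5157 in wild-type on replicate 2. The *sim3-205* sample was therefore the brighter on both of its arrays and the *sim3-143* sample the dimmer on both of its own. In *sim3-205* the 4 spots gave 0.92, 1.33, 0.76 and 0.71, all past 1.5-fold, and the mean corresponds to 1.90-fold. In *sim3-143* they gave -0.15, 0.068, -0.58 and -0.19.

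The *ade6* mean in *sim3-205* stood at the 96.9th percentile of all genes, and 2.54% of genes were past 1.5-fold in that direction. Its limma estimate had a 95% interval of 0.45 to 1.40 with an unadjusted p of 0.0039, which did not pass adjustment over all genes (adjusted p = 0.46). The difference between alleles, *sim3-205* minus *sim3-143*, was 1.14 (SE 0.26, 95% interval 0.47 to 1.81, unadjusted p = 0.0070, adjusted p = 0.71). Grid 9, in which *ade6* was printed among 148 genes, was itself shifted on 2 arrays. Its median was 0.28 on *sim3-205* replicate 1 and -0.30 on *sim3-143* replicate 2, against -0.016 and 0.039 on the other arrays. Relative to the grid median, *ade6* stood at 0.84 and 0.75 in *sim3-205* and at -0.080 and -0.088 in *sim3-143*. With print-tip loess the *sim3-205* ratios were 0.39 and 0.64 (mean 0.51), still higher in the mutant but no longer past 1.5-fold.

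*lys1* lay below wild-type by a similar amount on every array. Its intensity was 5160 in *sim3-143* against 6564 in wild-type on replicate 1, and 6179 in *sim3-143* against 8506 in wild-type on replicate 2. It was 3003 in *sim3-205* against 4464 in wild-type on replicate 1, and 3291 in *sim3-205* against 5036 in wild-type on replicate 2. Each mutant sample was dimmer than wild-type, by -0.35 and -0.46 on the log2 scale in *sim3-143* and by -0.57 and -0.61 in *sim3-205*. The 8 spots ranged from -0.28 to -0.62. The mean over both alleles was -0.50 (SE 0.10, 95% interval -0.76 to -0.23), or 0.708-fold, lower on 4 of 4 arrays. It did not pass the test (limma unadjusted p = 0.0047, adjusted p = 0.28), and the exact sign-flip test again gave only its smallest possible p.

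The *lys1* difference between alleles was -0.19 with a 95% interval of -0.72 to 0.34. In *sim3-205* 3 of 4 spots were past 1.5-fold, at -0.60, -0.61 and -0.62, and the fourth lay just inside at -0.54, so the call rests on small margins. The call was lost with print-tip loess (mean -0.48), with median centring (-0.49) and when replicate 1 alone was used. In *sim3-143* the mean became -0.58 with print-tip loess. *lys1* and *his3* were printed in the same grid, whose median lay between -0.15 and 0.20. Relative to it *lys1* stood between -0.42 and -0.66 on the 4 arrays.

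*leu1* was also below wild-type on every array, by less in *sim3-143*. Its intensity was 7015 in *sim3-205* against 9780 in wild-type on replicate 1, and 5036 in *sim3-205* against 8427 in wild-type on replicate 2. It was 12384 in *sim3-143* against 13120 in wild-type on replicate 1, and 9952 in *sim3-143* against 12195 in wild-type on replicate 2. The log2 ratios were -0.48 and -0.74 for *sim3-205* and -0.083 and -0.29 for *sim3-143*. Both *sim3-205* arrays thus lay below both *sim3-143* arrays, with a difference of -0.42 (95% interval -1.01 to 0.17, limma adjusted p = 0.71). In *sim3-205* 2 of 4 spots were past 1.5-fold, both on replicate 2, so *leu1* missed the rule although its mean, 0.655-fold of wild-type, passed that size. The 95% interval of the *sim3-205* mean was -1.03 to -0.19 (unadjusted p = 0.013, adjusted p = 0.53). The grid that holds *leu1* had a median of -0.30 on *sim3-205* replicate 1. With print-tip loess the *sim3-205* ratios were -0.17 and -0.55, a mean of -0.36. Those of *sim3-143* became 0.019 and -0.088, a mean of -0.034, so the lower *leu1* level in *sim3-143* depended on the processing.

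The 6 pathways to which the markers belong were then followed beyond the marker genes. Of 43 genes listed, 39 had a probe. In *sim3-143* 4 of 39 were lower past 1.5-fold and none was higher, a share of 10.3% beside the 1.39% of all genes that were lower. They were *ade8* (adenylosuccinate lyase) with ratios of -1.20 and -0.88, *ura1* (the first enzyme of pyrimidine synthesis) with -0.58 and -0.99, *his1* (ATP phosphoribosyltransferase) with -0.63 and -0.79, and *lys4* (homocitrate synthase) with -0.63 and -0.78. The same 4 genes were past it with print-tip loess. In *sim3-205* 2 of 39 were lower and 1 was higher, or 5.13% and 2.56% beside 0.64% and 2.54% of all genes. Besides *lys1* and *ade6* this was *ade10*, an enzyme of the last steps to IMP, with -0.80 and -0.87. With print-tip loess the *sim3-205* set changed to 3 lower genes, *ade1*, *ade3* and *ade10*, and 0 higher. *ade3* had main ratios of -0.28 and -0.85 in *sim3-205* and -0.45 and -0.85 in *sim3-143*. The study lists *ade3* as lower past 1.5-fold in *sim3-205*. The lists were chosen with earlier results of these data known and no set test was run, so the shares are descriptive.

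The 4 genes named for *sim3-143* had *sim3-205* ratios of 0.11 and 0.11 (*ade8*), -0.15 and -0.39 (*ura1*), 0.17 and -0.37 (*his1*) and 0.15 and -0.48 (*lys4*). No list gene was called by limma. The median over the 39 genes was -0.21 in *sim3-143* and -0.13 in *sim3-205*, where all genes had medians of -0.010 and 0.0061. Of the 39, 31 and 27 lay below 0 on the *sim3-143* arrays and 20 and 28 on the *sim3-205* arrays, beside 47.4% to 50.4% of all genes on an array. Print-tip loess moved the *sim3-205* median to -0.053 and the *sim3-143* median to -0.18.

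**Figure D3:**
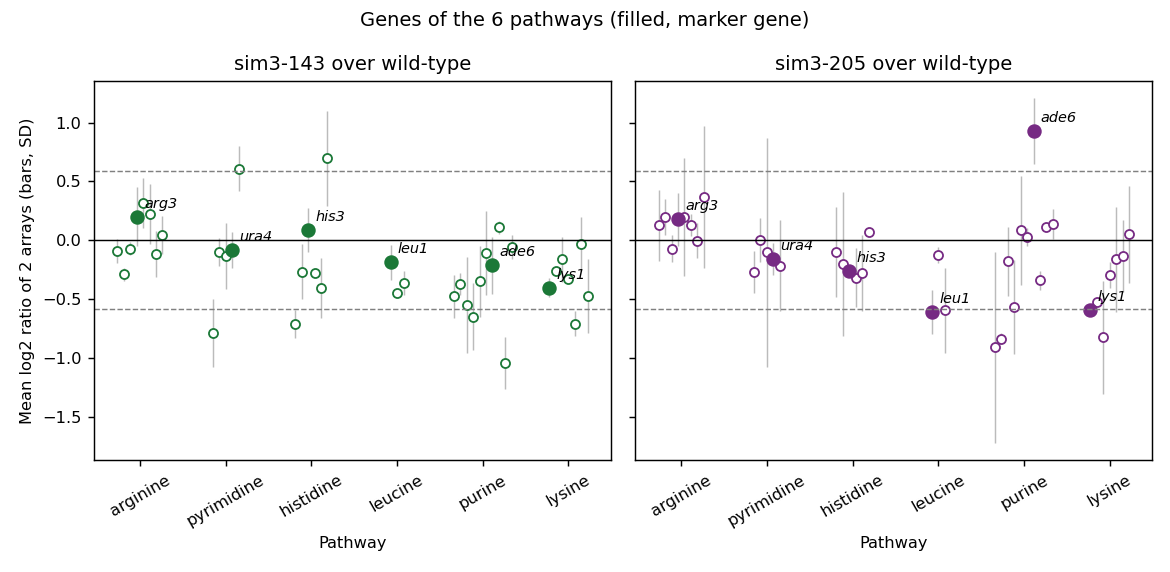
Mean log2 ratio of mutant over wild-type of 2 arrays (vertical axis, bars show the SD) for the 39 measured genes of the 6 pathways (horizontal axis), with *sim3-143* on the left and *sim3-205* on the right. Filled points are the marker genes and dashed lines mark 1.5-fold. Most purine and lysine genes lie below 0 in *sim3-143* (medians -0.36 and -0.33), and *ade6* stands apart from the other purine genes in *sim3-205*.

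None of the 8 arginine genes passed 1.5-fold in either allele, with means between -0.29 and 0.32 in *sim3-143* and between -0.071 and 0.37 in *sim3-205*. *arg4* and *arg5*, the subunits of the arginine-specific carbamoyl-phosphate synthase, had ratios of 0.17 and 0.47, and of 0.045 and 0.40, in *sim3-143*. In *sim3-205* they had -0.16 and 0.55, and 0.062 and 0.20. Both genes thus shared with *arg3* the higher value where the mutant was in Cy5. The other arginine genes did not. *arg1*, *arg7* and *arg12* read lower there in both alleles, and *arg6* and *arg11* read lower there in *sim3-205* only.

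The leucine genes all lay below 0 on all 4 arrays. *leu2*, isopropylmalate isomerase, had ratios of -0.42 and -0.47 in *sim3-143* and -0.077 and -0.17 in *sim3-205*. *leu3*, isopropylmalate synthase, had -0.29 and -0.43 in *sim3-143* and -0.34 and -0.85 in *sim3-205*. None of the 3 passed the rule or the test.

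Among the 10 purine genes *ade6* was the only one past 1.5-fold upward in either allele. The other 9 had *sim3-205* means from -0.91 for *ade1*, which lies in a grid of unrelated dyes on replicate 1, to 0.14. *ade8*, printed in the same grid as *ade6*, differed between alleles by a like amount, 1.15 (*sim3-205* minus *sim3-143*, limma unadjusted p = 0.0037, adjusted p = 0.71), but through its low *sim3-143* ratios. Of 7 lysine genes all lay below 0 on replicate 2 of both alleles, 6 did so on *sim3-143* replicate 1 and 4 on *sim3-205* replicate 1. *lys3* had ratios of -0.35 and -0.30 in *sim3-143* and -0.37 and -0.22 in *sim3-205*, and *lys12*, homoisocitrate dehydrogenase, -0.23 and -0.28 in *sim3-143* and -0.52 and -0.53 in *sim3-205*. Both lay below wild-type on all arrays, like *lys1*, and neither passed 1.5-fold.

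The chromosomal neighbours of the marker genes were read next. The nearest gene with a probe on each side was taken from the gene table of assembly ASM294v3, and none of the 12 passed 1.5-fold in either allele. Genes without a probe were passed over, so some of these are not direct neighbours. Beside *ade6*, *bub1* (a spindle checkpoint kinase) had ratios of 0.17 and 0.19 in *sim3-205* and 0.26 and 0.34 in *sim3-143*. *vtc4*, on the other side, had -0.64 and 0.072 in *sim3-205* and 0.028 and -0.44 in *sim3-143*. Neither neighbour was past 1.5-fold where *ade6* was.

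Beside *lys1*, the ribosomal protein gene *rpl1002* had ratios of 0.14 and 0.20 in *sim3-143* and -0.088 and -0.039 in *sim3-205*. *prm1*, whose annotated span overlaps *lys1*, had 0.35 and 0.33 in *sim3-143* and -0.087 and 0.16 in *sim3-205*. As the strand of the probes is not given, signals of the 2 overlapping genes may not be separate, yet *prm1* lay above wild-type where *lys1* lay below it on 3 of 4 arrays. On one side of *ura4*, past *tam14* and *mug135*, SPCC330.03c had 0.43 and 0.94 in *sim3-143* and 0.33 and 1.07 in *sim3-205*. It was above wild-type throughout where *ura4* was close to it, with 2 of 4 points past 1.5-fold in each allele. The study, with its own normalization and perhaps other spot names, does list SPCC330.03c as higher past 1.5-fold in *sim3-205*. On the other side, past *new25*, *pmp20* had 0.043 and 0.047 in *sim3-143* and 1.45 and 0.14 in *sim3-205*. In *sim3-205* 2 of its 4 points were past 1.5-fold. *arg11*, next to *arg3* and itself an arginine gene, had -0.33 and -0.25 in *sim3-143* and 0.30 and 0.089 in *sim3-205*, on either side of 0 by allele. On the other side of *arg3*, *cmb1* had -0.11 and 0.094 in *sim3-143* and -0.19 and -0.011 in *sim3-205*. Its annotated span overlaps *arg3*, so the signals of *arg3* and *cmb1* may not be separate either. *top2*, next to *leu1*, had 0.54 and 0.56 in *sim3-143* and -0.74 and -0.041 in *sim3-205*.

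The genes with the pattern most like each marker over the 4 arrays were named by the smallest Euclidean distance between their log2 ratios, among 4824 genes. For *ura4* they were *cdc25*, *mrp11* and *ely5* (distances 0.062, 0.077 and 0.087). For *arg3* they were *iah1*, *ank1* and *nse2* (0.067, 0.11 and 0.11), and for *his3* *fma2*, *mbx1* and *aah2* (0.093, 0.098 and 0.13). For *lys1* they were *zuo1*, *ilv1* and *gpt2* (0.14, 0.16 and 0.18), and for *leu1* *dca7*, *apc2* and SPAC3G6.05 (0.15, 0.16 and 0.19). The nearest genes to *ade6* were *ser3* (0.28), SPAPJ691.02 (0.31) and *utp8* (0.44), farther off than for any other marker. No marker gene was among the 3 nearest of another.

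The strain list has silencing strains of both mating types, so mating-type transcripts were read as well. The P-cell genes *map2* (P-factor precursor) and *map3* (M-factor receptor) had ratios of 0.25 and 0.77, and of 0.068 and -0.72, in *sim3-143*. In *sim3-205* they had -0.14 and 0.12, and 0.099 and -0.27. Of the M-cell genes, *mam1*, *mam2* and *sxa2* were measured, with means between 0.0080 and 0.33 in *sim3-143* and between -0.15 and 0.019 in *sim3-205*. *mfm1*, *mfm2* and *mfm3* had no probe. None of these 5 genes passed 1.5-fold. The mating types of the hybridized cultures are not given, and whether mutant and wild-type shared one was not tested. The signals of these genes were not set against the empty and buffer spots gene by gene.

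**Figure D4:**
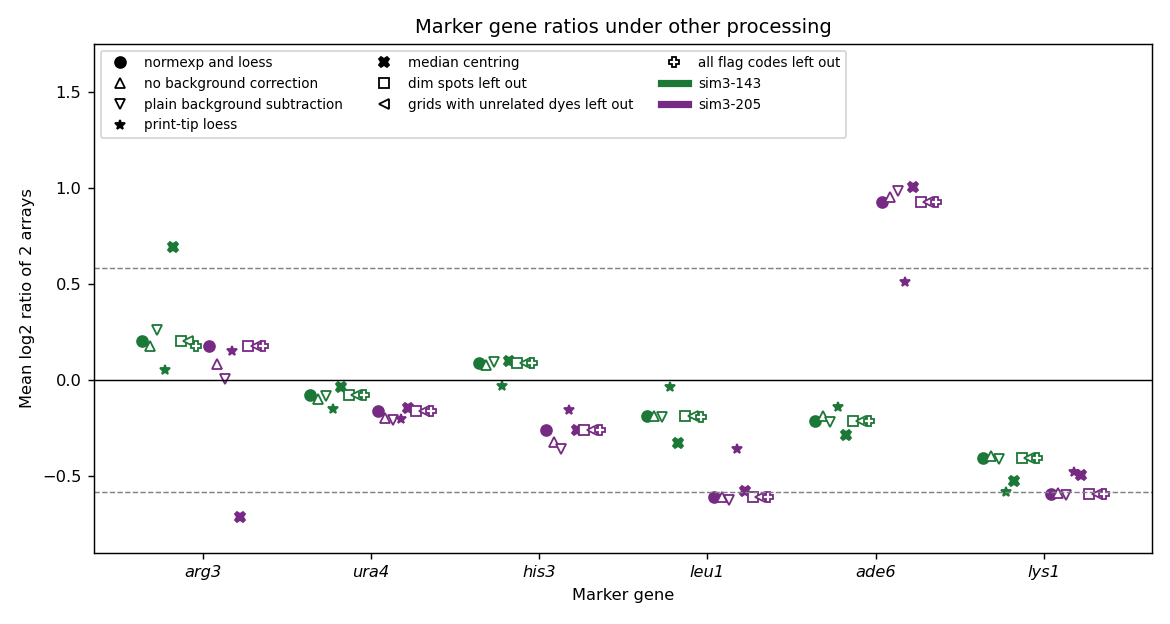
Mean log2 ratio of 2 arrays (vertical axis) for each marker gene (horizontal axis) in *sim3-143* (left of each pair) and *sim3-205* (right), under each background correction, dye normalization and spot filter (symbols). Dashed lines mark 1.5-fold. *ade6* in *sim3-205* ranges from 0.51 to 1.01 and stays above 0, *lys1* stays below 0 in both alleles, and *arg3* ranges from -0.71 to 0.18 in *sim3-205*.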

How the data were processed

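Spotted ORF arrays compared *sim3* mutant with wild-type cDNA in 2 dyes. The authors deposited median spot and local background intensities as scanned, with no normalization. They also deposited Lowess-normalized log2 ratios, mutant over wild-type. The deposited log2 ratios had medians of 0.0029, 0.072, -0.063 and 0.0086 for *sim3-143* replicates 1 and 2 and *sim3-205* replicates 1 and 2. Their scale and direction were found against the scanner values, and their background treatment is not given in the sources used here.

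Background correction of the intensities used normexp (offset 50), and loess (span 0.3) per spot file normalized the dyes (limma 3.58.1, R 4.3.3). Control, empty and buffer spots, between 8 and 60 spots per array with codes 1 or 4 of the image software and 73 spots of zero intensity were left out. Spots were named by position from the layout of *sim3-143* replicate 1. Median spot intensity was 953 to 2370 per array and dye, and at most 133 spots were saturated. Ratios of the 2 spots were averaged per array, and lmFit and eBayes were fitted to 4 arrays with a coefficient per allele and Benjamini-Hochberg adjustment over 4824 genes. P-values measure only the spread between these arrays, which may be technical. The scripts were tested on simulated data. The percentile counts, sign-flip tests and figures used Python 3.11.15.

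Genes named are the markers, the listed pathway and mating-type genes, neighbours, *sim3* and the 3 genes nearest in pattern to each marker. The members and lists were chosen with earlier results of these data known. Of 4861 gene names, 4663 matched the gene table of assembly ASM294v3. It was used for names and order only. Alternatives were other background corrections and dye normalizations, the deposited ratios, filters on dim spots, grids and image codes, the names as written, each array left out, other 1.5-fold rules, a dye coefficient and each allele fitted alone. The omission of all image codes was added after the data were seen.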

Additional observations from a re-analysis of the deposited data

Results flagged for a closer look

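The ratio of *ade6* differed between the alleles by 1.14 on the log2 scale (*sim3-205* minus *sim3-143*), since it lay above 0 on both *sim3-205* arrays and below 0 on both *sim3-143* arrays. The test of that difference did not pass adjustment over all genes (limma adjusted p = 0.71). The difference also rests on reading the spots by position. With the names as written, the *ade6* means were 0.36 in *sim3-143* and 0.24 in *sim3-205*, a difference of -0.12. With the spots read by position, the grid of *ade6* was shifted on *sim3-205* replicate 1 (median 0.28) and on *sim3-143* replicate 2 (median -0.30). This shift ran the same way as the *ade6* ratios. Its part in the difference was not tested beyond print-tip loess, with which the difference was 0.65.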

How the results depend on the processing

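No marker gene was past 1.5-fold in *sim3-143* under any setting run, arrays left out included. In *sim3-205* the count of 2 became 0 with print-tip loess and 0 with names as written, 1 with median centring (*ade6*) and 1 when all 4 data points were required (*ade6*). With each *sim3-205* array left out it ranged from 1 (*ade6*, without replicate 2) to 3 (without replicate 1, *leu1* included). Limma called 0 genes in each comparison. For *sim3-143* this became 9 without the grids of unrelated dyes and 19 with each allele fitted alone, and for the mean of both alleles it became 5 with print-tip loess and 18 without those grids. With an array left out, the counts ranged from 0 to 19 for *sim3-143*, from 0 to 267 for *sim3-205*, from 0 to 189 for their mean and from 0 to 235 for their difference, highest without *sim3-205* replicate 2 except for *sim3-143*, where leaving out either *sim3-205* array gave 19. The lone array left in an allele is there assumed to vary like the others. No marker gene was among any of these calls, and the lowest adjusted p of one was 0.054, for *ade6* in *sim3-205* without replicate 2. The cause of these shifts was not tested.

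The deposited log2 ratios were read at the positions of 4 of the marker genes on 2 arrays only and gave no count. On these 2 arrays they follow the gene names written for the spots, which match the printed layout at 0.52% of positions. The values below are thus those of the spots at the marker positions, deposited under the names written there and not under the marker names. On *sim3-143* replicate 2 and *sim3-205* replicate 1 they were 0.88 and -0.34 at the *arg3* position and 0.030 and -0.44 at that of *ura4*. They were 0.24 and -0.52 at the *his3* position and -0.48 and -0.68 at that of *lys1*. No paired analysis was possible because the labels give no replicate numbers, beyond the pairing of mutant and wild-type on each array. A coefficient for the dye of the mutant, which splits the arrays in the same way as the numbers used here, gave 0 calls in each of the 4 comparisons, and the lowest adjusted p of a marker gene in that fit was 0.23 (limma, *lys1*, mean of both alleles). The promoter motif search was not run. The number of arrays, 2 per allele, limits every gene, and *arg3* was dim, with raw intensities of 2.06 to 4.85 times its background.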
